A study of Mus musculus with 4 samples.

Results

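Malat1 and Neat1 are a pair of long noncoding RNAs that stay in the nucleus, and their raw UMIs (unique molecular identifiers, each a tagged RNA molecule) were read in all 4 single-cell libraries of the study. They are 2 of 27998 genes in the deposited tables, chosen by name and not by their values. The mice were MMTV-HER2/Neu animals on an FvB background, whose mammary epithelium expresses the rat Erbb2 (HER2/Neu) oncogene from the promoter of the mouse mammary tumor virus. Cells were sorted as CD45- HER2+, labelled breast cancer cells, and loaded on a 10X Chromium 3′ kit. The late lung library came from lungs of mice older than 20 weeks that carried primary tumors. The early lung library came from lungs of mice aged 14 to 18 weeks with no palpable tumor. The primary tumor library came from breast tumors of the older mice, and the early lesion library came from mammary glands of the younger mice. All groups therefore share the transgene, the strain and the sort. Each group was 1 library, and the sources used here do not say how many mice went into it. No difference below has a replicate check, so intervals cover counting error only and no p-value is given.

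Malat1 gathers in nuclear speckles, the bodies that store splicing factors, and is often among the most abundant RNAs in a mammalian cell. Its mature 3′ end is cut by RNase P and carries a tract of A encoded in the genome in place of a poly(A) tail. Neat1 is the scaffold of paraspeckles and is made in a short polyadenylated form and a long form whose 3′ end is made in the same way as that of Malat1. Because both RNAs stay in the nucleus, while most mRNAs and all mitochondrially encoded RNAs (the mt- genes) lie outside it, the question addressed by these values is how the nuclear and cytoplasmic shares of the captured RNA varied from cell to cell.

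In GENCODE M21 on mm10, Malat1 (ENSMUSG00000092341) is a lincRNA gene on the minus strand of chromosome 19, from 5795690 to 5802672. Neat1 (ENSMUSG00000092274), also a lincRNA gene, lies on the same strand from 5824708 to 5845478, with 22035 bases between the genes. A gene annotated on the opposite strand, Gm37376, overlaps Malat1 and was not analysed here. Whether counting used strand is not given, so its reads cannot be told apart from those of Malat1. The kit primes reverse transcription with oligo-dT, so the stretches shown are the A-rich ends and the polyadenylated end, from the GENCODE M21 transcript models, written 5′ to 3′ on the RNA strand with T for U. In the first, at chr19:5795982-5796041, capitals mark the run of 12 A, the longest in the 6983-base transcript Malat1-201, and the GCAAAA that follows it. In the second, at chr19:5824708-5824767, capitals mark the A tract and the same GCAAAA at the end of the 20771-base Neat1-201. In the third, at chr19:5842307-5842366, capitals mark the poly(A) signal letters AATAAA at the end of the short Neat1 transcript of 3004 bases.
Malat1 A-rich end: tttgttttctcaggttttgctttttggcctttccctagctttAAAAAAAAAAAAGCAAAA
Neat1 long transcript end: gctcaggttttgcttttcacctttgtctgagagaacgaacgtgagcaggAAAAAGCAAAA
Neat1 short transcript end: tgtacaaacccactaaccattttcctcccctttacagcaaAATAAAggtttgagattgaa
The run of A in Malat1-201 ends 298 bases before the 3′ end of the model. The longest run of A in Neat1-201 has 7 bases and lies 11226 bases from its 3′ end. In the short Neat1 transcript the longest run has 5 bases. Broken stretches rank otherwise. Windows of 20 bases with 15 or more A number 26 in Neat1-201, 6 in Malat1-201 and 0 in the short Neat1 transcript. The highest content of such a window is 17 A in both Malat1-201 and Neat1-201. Where the reads of either gene fell along the transcripts cannot be read from gene counts.

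Cells were barcodes with at least 500 UMIs and 250 genes, at any mitochondrial share. There were 210 in the late lung, 186 in the early lung, 496 in the primary tumor and 1343 in the early lesion library, and no cell barcode was shared by any pair of libraries. Median depth was 811, 769, 1400 and 2303 UMIs per cell in that order, and median mt- share was 2.71, 3.48, 0.530 and 0.128%. A few deep cells weighed heavily on the sums. The 8 cells over 10000 UMIs held 42.2% of the late lung UMIs and the 18 in the primary tumor held 53.0%, against 5.59% in the 1 such cell of the early lung and 6.46% in the 21 of the early lesion. Markers of lung cells were common in the lung libraries. Ager, a marker of alveolar type 1 cells, was seen in 60.5% of late lung and 46.2% of early lung cells. Counts of the mouse Erbb2 gene were scarce in all 4 libraries. They were in 0.952% of late lung, 1.08% of early lung, 6.85% of primary tumor and 2.23% of early lesion cells, at 7.28, 14.7, 49.0 and 7.60 CPM. Whether RNA of the rat transgene was counted there is not known, so these values set no limit on HER2 in the sorted cells. Epcam, an epithelial adhesion gene, was seen in 8.10% of late lung, 5.38% of early lung, 52.0% of primary tumor and 74.7% of early lesion cells. Ptprc, which encodes CD45, was seen in no cell of the late lung, early lung or primary tumor libraries, which allows shares of cells with a UMI of up to 1.43, 1.61 and 0.605% but sets no limit on cells that express it at these depths. It was seen in 2 cells of the early lesion library.

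Malat1 was absent from most cells of every library and very abundant in a few. Its summed share was 1.54% of UMIs in the late lung (6349 counts, 95% interval 1.503 to 1.579), 0.397% in the early lung (812 counts, 0.371 to 0.426), 0.452% in the primary tumor (8480 counts, 0.442 to 0.461) and 0.0843% in the early lesion library (3327 counts, 0.0814 to 0.0872). No interval overlapped another, so the order ran from late lung through primary tumor and early lung to early lesion. The share in the median cell was 0 in all 4 libraries. At the 95th percentile of cells it was 2.02% in the late lung, 0.109% in the early lung, 0.471% in the primary tumor and 0.355% in the early lesion. The highest cell had 16.8, 9.33, 13.1 and 25.9% in the same order. The order of the libraries by sum was thus not the order by highest cell, where the early lesion came first.

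Neat1 was scarce throughout. It had 24 counts in the late lung, 10 in the early lung, 305 in the primary tumor and 91 in the early lesion library. These made 0.00582% of UMIs in the late lung (0.00373 to 0.00867), 0.00489% in the early lung (0.00235 to 0.00900), 0.0162% in the primary tumor (0.0145 to 0.0182) and 0.00231% in the early lesion (0.00186 to 0.00283). The primary tumor stood above the other libraries, while the intervals of the lungs overlapped each other and that of the early lung reached into that of the early lesion. The share in the median cell was again 0. The highest cell had 0.171% in the late lung, 0.112% in the early lung, 0.569% in the primary tumor and 1.17% in the early lesion.

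**Figure D1:**
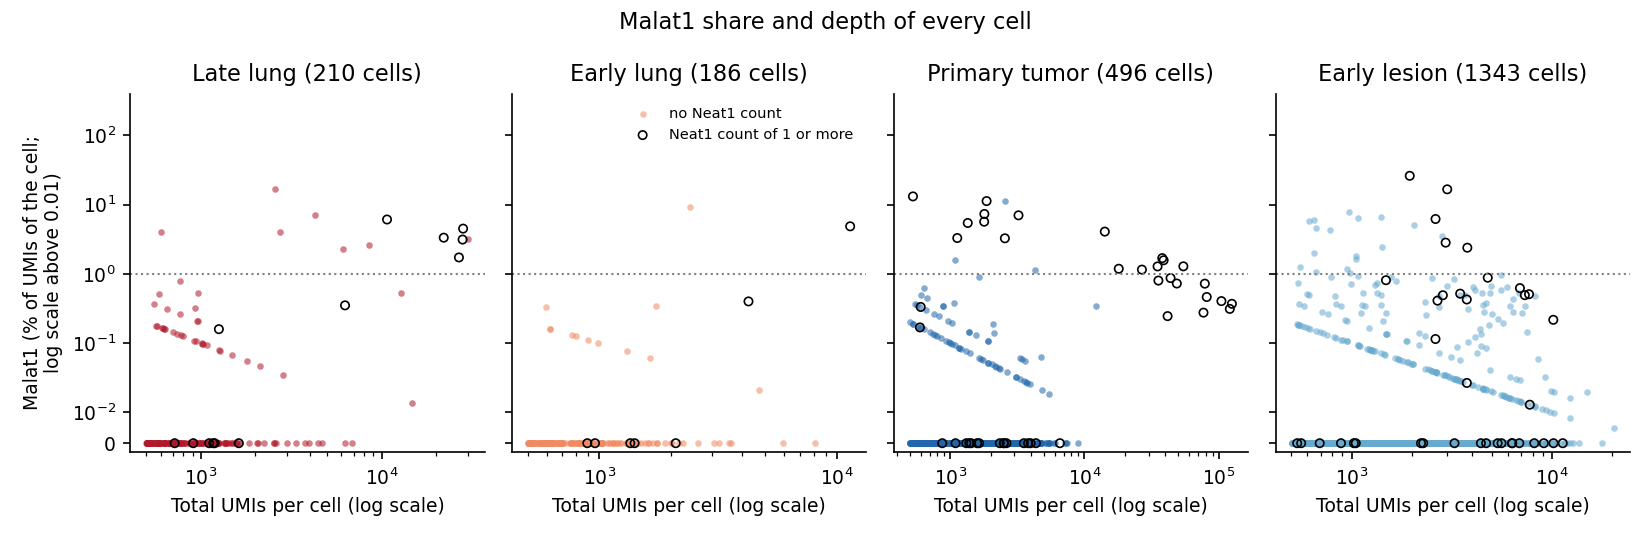
Malat1 share of UMIs (vertical axis, percent) against total UMIs (horizontal axis) for each cell, in a panel per library, with cells that had a Neat1 count ringed in black and a dotted line at 1%. Most cells lie at 0, cells with a single Malat1 count form the sloping line, and the deep cells of the late lung and primary tumor all carry Malat1 while 14 of the 21 deep cells of the early lesion do not.

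To compare how many cells lacked each RNA, every cell was thinned at random to 500 UMIs, which left out no cell. At that depth 82.9% of late lung cells had no Malat1 (exact binomial 95% interval 77.1 to 87.7), against 93.5% in the early lung (89.0 to 96.6), 85.9% in the primary tumor (82.5 to 88.8) and 89.5% in the early lesion (87.7 to 91.1). The intervals of the late lung and the early lung did not overlap, while that of the primary tumor overlapped those of the late lung and the early lesion. Without thinning the shares were 77.6, 92.5, 80.0 and 82.9%. For Neat1 the thinned shares without a count were 98.1% in the late lung, 97.8% in the early lung, 97.6% in the primary tumor and 99.2% in the early lesion, and unthinned they were 93.8, 96.2, 91.3 and 97.2%. No cell class in these libraries is known to lack Malat1, so free RNA could not be gauged from such a class, and the values in shallow barcodes are given further on.

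Counts were held by very few cells. The fewest cells that together held 90% of the Malat1 counts numbered 9 of 210 in the late lung, 2 of 186 in the early lung, 19 of 496 in the primary tumor and 64 of 1343 in the early lesion. A single cell gave 553 of the 812 Malat1 counts of the early lung. Without it the early lung share was 0.134%. The Neat1 counts were spread in a similar way, with 60 of the 305 in the primary tumor and 35 of the 91 in the early lesion coming from 1 cell each.

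**Figure D2:**
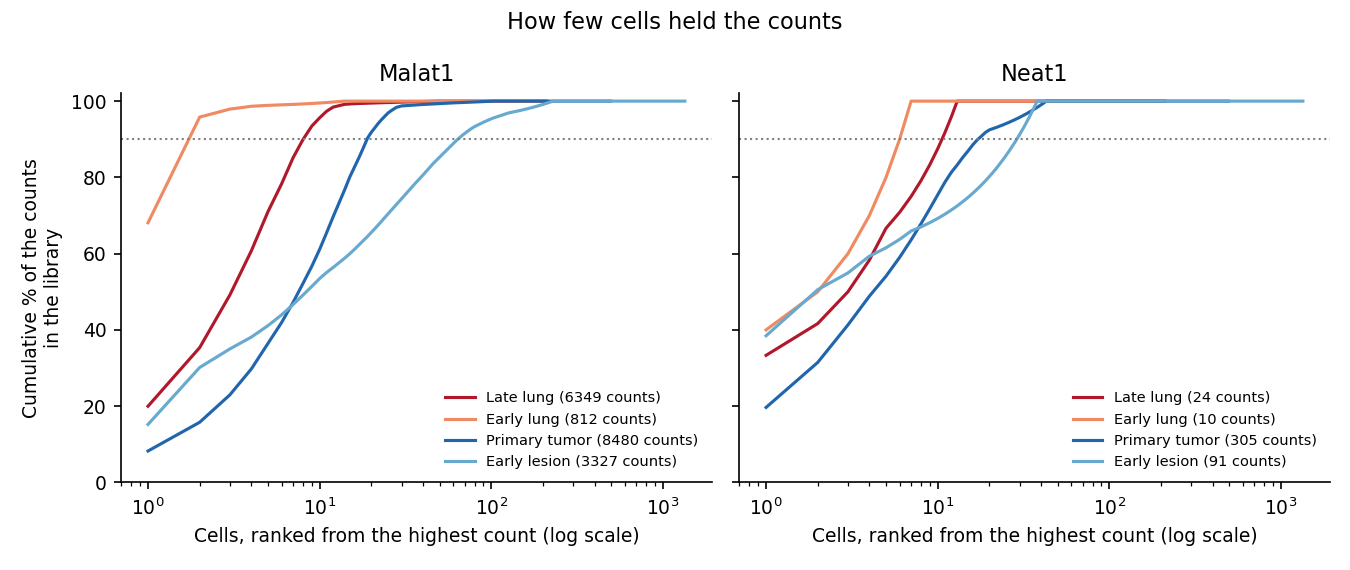
Cumulative percent of the Malat1 (left) and Neat1 (right) counts of each library (vertical axis) over cells ranked from the highest count (horizontal axis, log scale), with a dotted line at 90%. The Malat1 curve crosses that line at 9 cells in the late lung, 2 in the early lung, 19 in the primary tumor and 64 in the early lesion.

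Cells in which Malat1 made up at least 1% of UMIs, a limit set after the values were seen, numbered 12 in the late lung (5.71% of cells), 2 in the early lung (1.08%), 18 in the primary tumor (3.63%) and 22 in the early lesion (1.64%). They held 97.7% of the Malat1 counts of the late lung, 95.8% of the early lung, 56.3% of the primary tumor and 61.1% of the early lesion. Near the limit, between 0.5 and 2%, lay 5 late lung cells, no early lung cell, 14 primary tumor cells and 34 early lesion cells. The cells over the limit were deeper than cells without any Malat1 count in the lungs and the tumor and shallower in the lesion. Their median depth was 9635 against 756 UMIs in the late lung, 6912 against 759 in the early lung, 2895 against 1361 in the primary tumor, and 1051 against 2230 in the early lesion.

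Deep cells differed between the libraries in Malat1. All 8 late lung cells over 10000 UMIs, the 1 of the early lung and all 18 of the primary tumor carried Malat1, at medians of 3.17, 4.85 and 0.762% of UMIs. Of the 21 such cells of the early lesion, 14 had no Malat1 count, and their highest share was 0.217%. In the primary tumor, 14 of the 15 cells with 5000 to under 10000 UMIs had none, and their summed share was 0.00109% (0.0000275 to 0.00605), whereas the cells over 10000 UMIs had 0.710%. In the early lesion the summed share was 0.150% in cells under 1000 UMIs and 0.197% from 1000 to under 2000. It was 0.0933% from 2000 to under 5000, 0.0383% from 5000 to under 10000 and 0.0125% over 10000. A single cell gave 506 of the 885 counts from 1000 to under 2000 UMIs, and another gave 497 of the 1571 from 2000 to under 5000. The summed share was thus lowest in the deepest cells of the early lesion and highest in the deepest cells of the lungs and the tumor.

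Neat1 followed Malat1 in the tumor. The 18 deep tumor cells held 260 of the 305 Neat1 counts, and 17 of them had at least 1. In the late lung the 8 deep cells held 14 of 24 counts, and in the early lung the 1 deep cell held 4 of 10. The 21 deep cells of the early lesion held 3 of 91.

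Barcodes below the cell limit, which can hold free RNA and fragments of cells, carried both RNAs as well. In barcodes of 1 to 50 UMIs, Malat1 made up 0.168% of UMIs in the late lung (0.154 to 0.183), 0.0560% in the early lung, 0.160% in the primary tumor and 0.0866% in the early lesion. Late lung cells under 1000 UMIs had 0.0709% (0.0545 to 0.0908) and those from 1000 to under 2000 UMIs had 0.0158% (0.00758 to 0.0291), both below the barcodes of 1 to 50 UMIs of that library. Its barcodes above 50 and under 200 UMIs had 0.0745% (0.0622 to 0.0884) and those from 200 to under 500 UMIs 0.0693% (0.0567 to 0.0838). Next to these the late lung cells under 1000 UMIs did not differ beyond the intervals. A single cell, at 3.96% Malat1, gave 24 of the 63 counts of those cells, and the comparison was not made without it. Early lung cells under 1000 UMIs, at 0.00891%, were also below theirs. In the early lung the barcodes from 200 to under 500 UMIs, at 0.0365% (0.0273 to 0.0479), were also above the cells under 1000 UMIs. Neat1 in barcodes of 1 to 50 UMIs was at 0.0110, 0.0107, 0.0125 and 0.00275% in late lung, early lung, primary tumor and early lesion. The part of free RNA in the counts per cell was not tested.

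**Figure D3:**
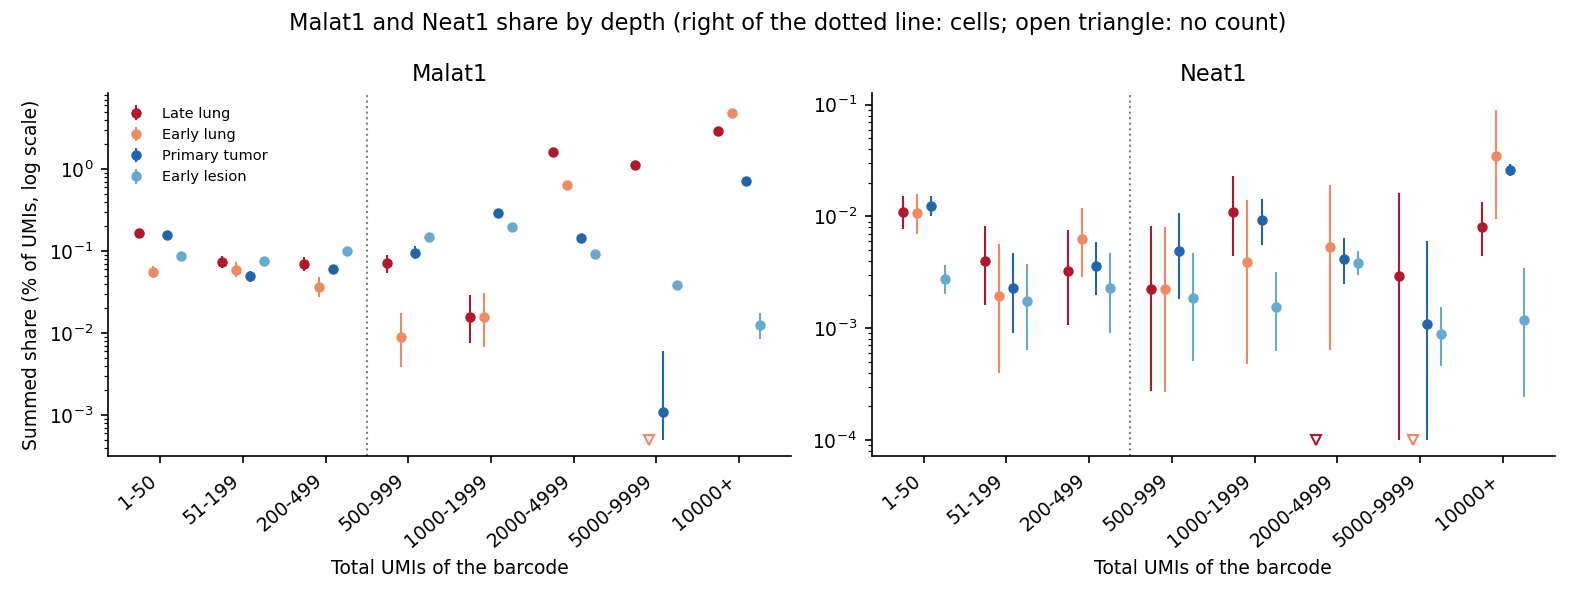
Summed Malat1 (left) and Neat1 (right) share of UMIs (vertical axis, percent on a log scale) by the total UMIs of the barcode (horizontal axis), for the late lung, early lung, primary tumor and early lesion libraries, with exact Poisson 95% intervals and triangles where no count was found. Malat1 in the lungs lies below the level of barcodes of 1 to 50 UMIs in cells under 2000 UMIs and far above it in cells over 10000.

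Summed Malat1 differed between ranges of mitochondrial share, not along a line, and the part of depth was not tested. Summed over cells, Malat1 was higher at 1 to 5% mt- UMIs than under 1% in all 4 libraries. The shares were 2.29 against 0.0114% in the late lung, 0.282 against 0.0303% in the early lung, 0.713 against 0.0240% in the primary tumor and 0.244 against 0.0389% in the early lesion. At 1 to 5%, the richest 3 cells gave 3122 of 6328 counts in the late lung and 1715 of 3712 in the primary tumor. In the early lesion they gave 277 of 337, and 82.5% of cells had no Malat1 count, against 83.6% under 1%. Those shares were 72.7 against 83.3% in the late lung and 64.2 against 87.1% in the tumor. Cells over 10000 UMIs held 79.4% of Malat1 counts in the late lung and 83.4% in the tumor, at median mt- shares of 3.12 and 4.63%. The early lung values each rested on 1 cell, which gave 225 of 238 counts at 1 to 5% and 17 of 20 under 1%. Without the richest cell of each range they were 0.0158% (0.00844 to 0.0271) and 0.00486% (0.00100 to 0.0142), with intervals that overlap, and 90.5% of cells had no Malat1 count in both ranges. At 5 to 10% the early lung had 1.20%, all from the cell with 553 counts, and the late lung had 0.0323%. The highest range value was 4.88% in the 20 early lesion cells with 10 to 20% mt- UMIs, which included the cells with 25.9 and 16.6% Malat1. In the primary tumor the 51 cells with 10 to 20% mt- had 1.77%, and the 62 cells over 20% had 1.25%. Of the 51 cells, 1 gave 576 of the 1124 counts and 39 had none, and without the richest cell the share was 1.11%. The 640 counts of the tumor cells over 20% included cells with 291 and 131 counts. Most cells over 20% mt- had no Malat1 count, as did most cells under 1% mt-. Of those 62 tumor cells, 45 had none (72.6%), against 87.1% of the 302 tumor cells under 1%. Median depths were 678 and 2005 UMIs. Of the 25 early lesion cells over 20% mt-, 19 had none (76.0%), against 83.6% of the 1207 under 1%. There the median depths were 779 and 2464 UMIs.

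Across cells, Spearman's rho between Malat1 share and mt- share was 0.07 in the late lung (210 cells), -0.10 in the early lung (186), 0.18 in the primary tumor (496) and 0.09 in the early lesion (1343). For Neat1 it was 0.07, -0.05, 0.11 and 0.04. These points share a library and a depth range, most values are 0, and no relation is read from them. With total UMIs rho for Malat1 was 0.28, 0.19, 0.10 and 0.06, and between Malat1 and Neat1 shares it was 0.22, 0.16, 0.39 and 0.15.

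**Figure D4:**
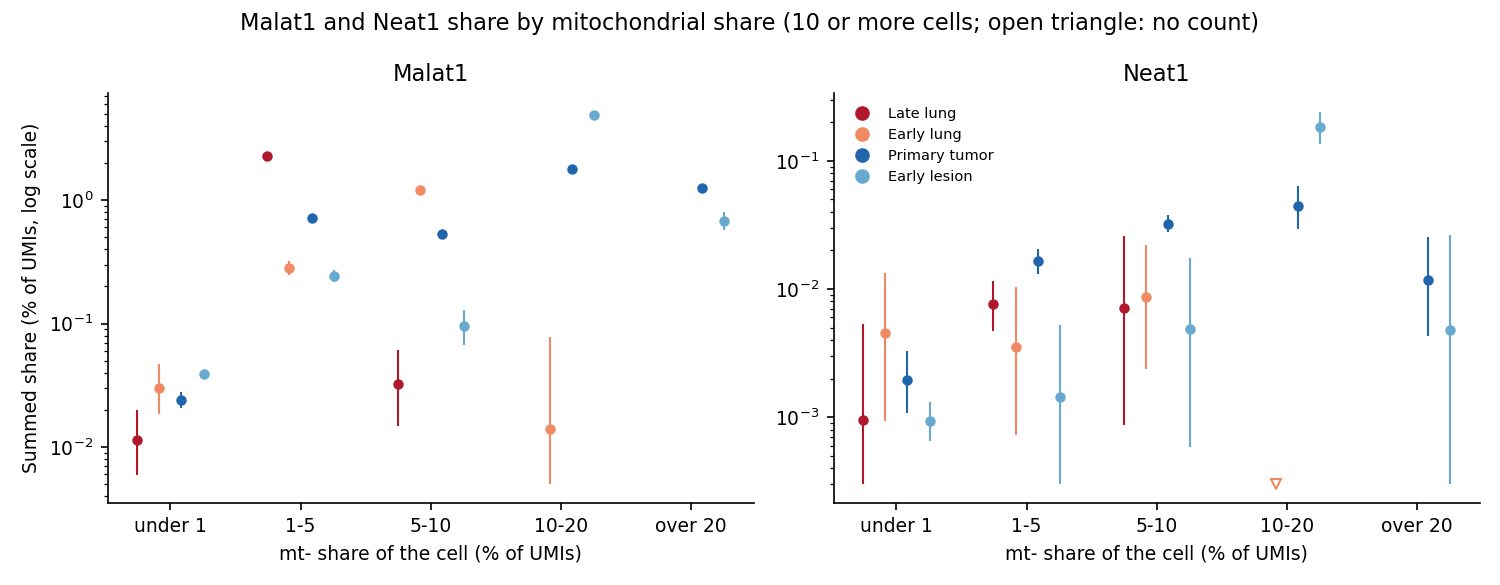
Summed Malat1 (left) and Neat1 (right) share of UMIs (vertical axis, percent on a log scale) by the mt- share of the cell (horizontal axis) in each library, for ranges with at least 10 cells, with exact Poisson 95% intervals. Malat1 is below 0.05% in every library for cells with under 1% mt- UMIs and reaches 4.88% in the early lesion at 10 to 20%.

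Cells with high Malat1 also held more of other nuclear RNAs. Xist, the RNA that coats the inactive X chromosome, was compared in counts per UMI other than Malat1, scaled as CPM. It reached 655 CPM in late lung cells with Malat1 at 1% or more, against 49.8 CPM in the other late lung cells. In the early lung it reached 1533 CPM (20 counts), against no count in the other cells, whose limit of 3 counts is 15.8 CPM. In the primary tumor it was 2056 against 755 CPM, and in the early lesion 2909 against 12.8 CPM. Kcnq1ot1, an antisense RNA that silences an imprinted domain, was at 72.8 against 8.31 CPM in the late lung, 307 against 5.25 in the early lung, 334 against 105 in the primary tumor and 163 against 1.28 in the early lesion. It rested on 4 and 5 counts in the high cells of the early lung and early lesion.

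Neat1 itself was at 84.9 against 41.5 CPM in the late lung, where the intervals overlapped (46.4 to 142 against 19.9 to 76.4), 307 against 31.5 in the early lung, 317 against 140 in the primary tumor and 1700 against 9.97 in the early lesion. The lesion value came from 52 counts in 5 of the 22 cells. Of the 22 high cells of the early lesion, 5 had Neat1 (22.7%), against 1.80% of cells without Malat1. In the primary tumor 15 of the 18 high cells had Neat1 (83.3%), against 4.03% of cells without Malat1. Of cells with Malat1 above 0 and under 1%, 14.8% had Neat1 in the primary tumor and 6.28% in the early lesion. In the tumor those 81 cells held 212 Neat1 counts, more than the 77 of the high cells.

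The list of other nuclear-retained long noncoding RNAs, of which 10 of 14 symbols matched, summed to 0.0806% of non-Malat1 UMIs in the high cells against 0.00623% in the other cells of the late lung. It was 0.207 against 0.00420% in the early lung, 0.246 against 0.0906% in the primary tumor and 0.317 against 0.00250% in the early lesion. Most of these counts were Xist. Messages for splicing factors of nuclear speckles (19 genes) were at 0.364 against 0.175%, 0.475 against 0.203%, 0.306 against 0.265% and 0.536 against 0.285% in the same order of libraries. Those for 14 paraspeckle proteins were at 0.173 against 0.152% in the late lung and 0.222 against 0.161% in the early lung, with overlapping intervals, at 0.151 against 0.191% in the primary tumor and at 0.314 against 0.242% in the early lesion. The 18 cytoplasmic housekeeping mRNAs went the other way, at 3.48 against 5.33% in the late lung, 2.48 against 5.33% in the early lung, 3.14 against 4.37% in the primary tumor and 3.65 against 5.10% in the early lesion. The mt- genes, which are cytoplasmic but within mitochondria, were higher in the sum over the high cells of each library. The values were 3.20 against 2.28%, 8.46 against 3.22%, 6.79 against 4.19% and 10.7 against 0.484%. The early lung value came from 2 cells, with mt- shares of all UMIs of 9.30% at 11411 UMIs and 1.78% at 2412 UMIs. In early lung cells without Malat1 the median mt- share was 3.62%. The lists of nuclear noncoding RNAs, splicing factors and mt- genes were thus higher in the sum over these cells in each library. The housekeeping list was lower, while the paraspeckle protein list went either way. Depth and cell class differed between the high and the other cells, and their part in these values was not tested.

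**Figure D5:**
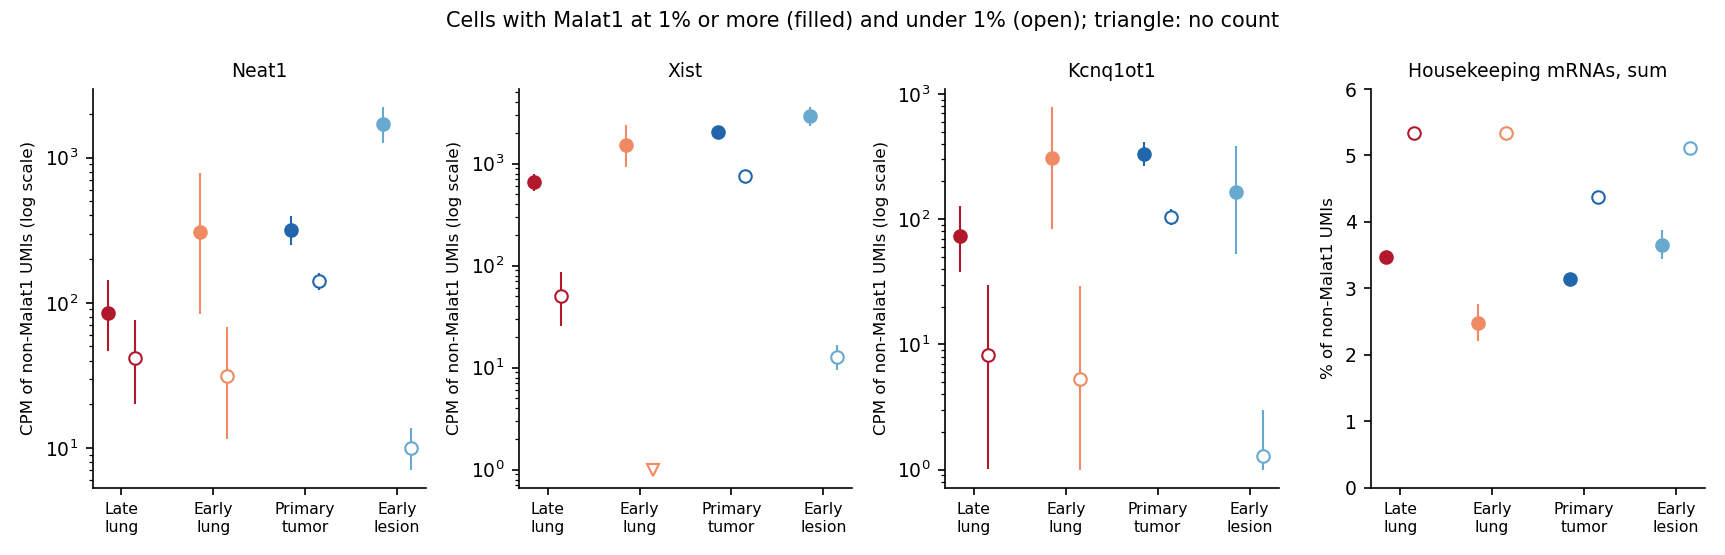
Neat1, Xist and Kcnq1ot1 in CPM of non-Malat1 UMIs (log axes) and the sum of 18 housekeeping mRNAs in percent (linear axis), in cells with Malat1 at 1% or more (filled) and under 1% (open), by library, with exact Poisson 95% intervals. The filled point is the higher of each pair for the 3 noncoding RNAs and the lower for the housekeeping mRNAs.

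Cells were clustered without Malat1, Neat1 and the mt- genes and named from marker lists. Alveolar type 1-like cells numbered 93 in the late and 62 in the early lung, endothelial-like cells 55 and 73, cells like pericytes or smooth muscle 33 and 35, and airway secretory-like cells 19 and 13. The late lung also had 6 mammary luminal-like and 4 macrophage-like cells, and the early lung 3 macrophage-like cells. In the primary tumor 494 of 496 cells and in the early lesion 1294 of 1343 were mammary luminal-like. Scgb1a1, a secreted airway protein gene, was among the leading genes of the endothelial-like and pericyte-like clusters too, and Sftpc, an alveolar type 2 gene, among those of the airway cluster. Fos, an immediate early gene, was among the leading genes of some early lesion clusters.

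Summed over the cells of a class, Malat1 in the lungs was higher in endothelial-like and pericyte-like cells than in epithelial classes, and in the early lung these sums came from 1 cell each. In endothelial-like cells it made up 2.35% of UMIs in the late lung (2.28 to 2.41) and 0.773% in the early lung (0.710 to 0.840). In pericyte or smooth muscle-like cells it was 3.10% in the late lung, 0.716% in the early lung and 1.88% in the early lesion. The name of these lesion cells depended on the clustering. At Leiden resolution 2.0 the class held 2 lesion cells, and 15 lesion cells were mammary basal or myoepithelial-like, with Malat1 at 2.03%. In alveolar type 1-like cells it was 0.0626% in the late lung (0.0464 to 0.0825) and 0.0178% in the early lung (0.00889 to 0.0319), and in airway secretory-like cells 0.0134% (0.00539 to 0.0276) and 0.0499% (0.0296 to 0.0788). The airway value of the early lung came from 1 cell with 17 of the 18 counts, and without the richest cell airway cells had 0.00975% in the late lung (0.00317 to 0.0228) and 0.00314% in the early lung (0.0000795 to 0.0175). Of the 12 late lung cells with Malat1 at 1% or more, 7 were endothelial-like, 3 pericyte-like, 1 alveolar type 1-like and 1 macrophage-like, and of the 2 in the early lung 1 was endothelial-like and 1 pericyte-like.

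The class sums also rested on deep cells. Without cells over 10000 UMIs the endothelial-like share was 0.685% in the late lung and 0.00496% in the early lung, since 6 late lung cells and 1 early lung cell held 4386 of 4758 and 553 of 556 counts. In pericyte-like cells, 3 cells held 1392 of the 1396 counts of the late lung and 1 cell 225 of the 227 of the early lung. Without the richest cell the pericyte-like share was 2.16% in the late lung, 0.00683% in the early lung and 1.47% in the early lesion. The early lung values of both classes were then below the 0.0178% of all alveolar type 1-like cells of that library, and level with the 0.00833% of that class without its own richest cell within the intervals. Of endothelial-like cells, 17 of 55 in the late lung and 4 of 73 in the early lung had any Malat1 count, at median depths of 769 and 695 UMIs, as did 18 of 93 and 5 of 62 alveolar type 1-like cells, at 717 and 792 UMIs. Neat1 in endothelial-like cells came to 13 counts in the late lung and 7 in the early lung, and in airway cells of the late lung none was counted in 52236 UMIs, which allows up to 0.00574%.

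In the mammary luminal-like class Malat1 was at 0.452% in the primary tumor (0.442 to 0.462) and 0.0661% in the early lesion (0.0636 to 0.0688). Nearly all of the tumor counts lay in a cluster of 26 cells with a median of 35289 UMIs, whose leading genes included Xist, Gm26917 and Nf1. It held 8251 of the 8480 Malat1 counts and 287 of the 305 Neat1 counts, all 26 cells had Malat1, and 25 had Neat1. In the largest tumor cluster (332 cells, median 1906 UMIs) Malat1 was at 0.0207%, and 39 cells had any. In the next (135 cells, median 774 UMIs and 17.6% mt-) it was at 0.0595%, and 34 cells had any. Different clusters held the luminal-like cells of the tumor and of the lesion. Among the lesion clusters the share ran from 0.00739% in a cluster of 296 cells led by milk protein genes to 0.544% in a cluster of 125 cells whose leading genes included Spp1, Hp and Ltf. The high value rested on few cells, since 15 of the 125 had any Malat1 and 1 of them had 25.9%.

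Summed over cells, Malat1 passed the call rule in each comparison. The rule asked for a ratio of at least 2-fold, either way, whose 95% interval excludes 1, among genes with at least 20 counts. For early lung over early lesion the log2 ratio of Malat1 was 2.24 (2.13 to 2.35), higher, against 22.1% of 8799 genes called higher and 11.8% lower. For late lung over primary tumor it was 1.77 (1.72 to 1.82), higher, against 20.6% of 8809 genes called higher and 17.1% lower. For primary tumor over early lesion it was 2.42 (2.36 to 2.48), higher, against 24.5% of 9843 genes called higher and 6.74% lower. For late lung over early lung it was 1.95 (1.85 to 2.06), higher, against 8.74% of 4554 genes called higher and 3.49% lower. With so large a share of all genes called, a call says little by itself, and the percentile of Malat1 among tested genes was 88.4, 87.3, 93.6 and 97.3 in these comparisons.

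The ratios of lung over mammary library changed sign under a cut made on Malat1 itself. Without cells with Malat1 at 1% or more, a setting added after the values were seen, the log2 ratio was -0.87 for early lung over early lesion, short of 2-fold. For late lung over primary tumor it was -1.93, called lower. It was 2.78 (2.69 to 2.87) for primary tumor over early lesion and 1.72 (1.19 to 2.32) for late lung over early lung, both still called higher. This setting lowers Malat1 by its construction. It removed 97.7% of the Malat1 counts of the late lung and 95.8% of those of the early lung. In the primary tumor it removed 56.3% and in the early lesion 61.1%. No result is read from the changes of sign, since the cut acts on the value compared. As a mean of the share per cell, early lung over early lesion was also reversed, at -0.44. Without the single richest cell of each library that comparison was 0.91, and without cells over 10000 UMIs it was 0.59, both short of 2-fold. Primary tumor over early lesion came to 0.84 without cells over 10000 UMIs. Late lung over primary tumor was still called higher without cells over 10000 UMIs, at 1.78, and without the richest cell of each library, at 1.63. As a mean of the share per cell, late lung over primary tumor was 0.65, short of 2-fold. The ratio of late lung over early lung passed the rule under the 11 other settings that give an interval, from 1.47 to 3.30.

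Neat1 was called higher in primary tumor over early lesion, at a log2 ratio of 2.81 (2.47 to 3.17), and stayed so under the 11 other settings that give an interval, from 1.11 to 3.93. It was called lower in late lung over primary tumor, at -1.45 (-2.14 to -0.88), though without cells over 10000 UMIs this was -0.23. For early lung over early lesion the ratio was 1.15 (-0.02 to 2.03) and for late lung over early lung 0.21 (-0.87 to 1.48), neither of which passed. Scaling by the median of gene ratios in place of total UMIs shifted ratios down by 0.47, 0.29 and 0.29 in the first 3 comparisons and up by 0.12 in the last. With it the share of called genes that were higher was 44.6% against 65.3% with total UMIs for early lung over early lesion, 41.3 against 54.7% for late lung over primary tumor, 63.4 against 78.4% for primary tumor over early lesion and 82.5 against 71.5% for late lung over early lung.

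Protein genes of the same nuclear bodies are set beside the shares over all genes given above, 22.1% higher and 11.8% lower, 20.6 and 17.1%, 24.5 and 6.74%, and 8.74 and 3.49% in the 4 comparisons. Of the 14 paraspeckle protein genes, none was called higher and 3 lower in early lung over early lesion, 1 higher and 1 lower in late lung over primary tumor, none higher and 1 lower in primary tumor over early lesion, and 1 higher of 12 measured in late lung over early lung. Nono and Sfpq, core paraspeckle proteins, had log2 ratios of -0.70 and -0.29 in primary tumor over early lesion, where Neat1 had 2.81. Of 19 splicing factor genes, 1 was called higher and 3 lower in early lung over early lesion, none higher and 1 lower in late lung over primary tumor, 1 higher in primary tumor over early lesion and 3 higher in late lung over early lung. The list medians were -0.35 and -0.34 in early lung over early lesion and -0.36 and 0.10 in primary tumor over early lesion, against medians over all tested genes of 0.18 and 0.32.

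Some other nuclear-retained RNAs passed the call rule in the comparisons with the tumor. In primary tumor over early lesion 5 of the 6 measured were called higher, against 24.5% of all genes, with a list median of 4.39 against 0.32 over all genes. Xist had a log2 ratio of 4.70 (920 against 35.2 CPM) and Kcnq1ot1 one of 5.65 (134 against 2.53 CPM). In late lung over primary tumor 3 of 5 measured were called lower, against 17.1% of all genes, among them Xist at -1.65 and Kcnq1ot1 at -1.93, while Malat1 was higher. Measured means at least 20 counts over both libraries, which 6 and 5 of the 10 genes in the files reached. Kcnq1ot1 passed through the tumor, at 251 counts against 10 in the lesion and 14 in the late lung. So did Tsix, at 29 against 3 and 7. The share called thus depends on where these RNAs are high, and no result is read from it. The ratios of this list were not computed without cells over 10000 UMIs, which held 53.0% of the tumor UMIs. Xist was a leading gene of the tumor cluster of 26 cells with a median of 35289 UMIs. Without cells over 10000 UMIs, primary tumor over early lesion fell to 0.84 for Malat1 and 1.11 for Neat1. All 13 mt- genes measured were called higher in primary tumor over early lesion (24.5% of all genes), and 12 of 12 in early lung over early lesion (22.1% of all genes).

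The genes most like Malat1 were sought by Pearson's r of log2 CPM over the 9 library and class sums of at least 20 cells, among 1686 genes. They were Gm42726 (0.93), Gm26917 (0.91), Gm42418 (0.90), Zfp36l1 (0.90), an RNA-binding protein gene that promotes decay of AU-rich mRNAs, and Tcf4 (0.89), a helix-loop-helix transcription factor gene. Gm26917 and Gm42418 are lincRNA models next to each other on chromosome 17. For Neat1 they were Abhd2 (0.81), Mrps21 (0.79), Manf (0.79), Socs2 (0.78) and Map1lc3a (0.73). Malat1 and Neat1 correlated at 0.34 over the same sums, and Malat1 ranked 175 for Neat1. The 9 points share libraries, classes and deep cells, and r is a description of them. Gm26917 was also higher in the cells with Malat1 at 1% or more, at 564 against 33.2 CPM in the late lung, 672 against 213 CPM in the primary tumor and 556 against 2.81 CPM in the early lesion.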

How the data were processed

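Single-cell 3′ libraries from 4 groups, 1 each, were read as the deposited raw UMI counts per gene and barcode, 27998 genes by 737280 barcodes, on build mm10, per the submitters' processing notes. Aligner, counter, annotation and use of strand are not given in the sources used here. UMIs over all barcodes numbered 1070236 in the late lung, 743765 in the early lung, 3403140 in the primary tumor and 6366768 in the early lesion library. Doublets were not called.

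Members and lists were chosen with earlier results of these data known. Counts were summed over cells as shares of UMIs or CPM with exact Poisson 95% intervals. Shares of cells have exact Clopper-Pearson intervals, after thinning to 500 UMIs. Ratios add 0.5 counts. No test across samples was possible, so no p-value is given. On simulated Poisson counts the ratio code, run with scaling by the median of gene ratios, recovered the known changes. The main ratios scale by total UMIs. The simulated counts had no single cells, so they cannot show how counts held by few cells act on a ratio. Clustering used scanpy 1.11.5 (10000 counts per cell, log1p, 2000 variable genes, 30 components, 15 neighbours, Leiden resolution 1.0). A cluster took a name when at least 3 markers were in 10% of its cells and 2-fold over the lower quartile of cluster means. The genes named were Malat1 and Neat1, up to 4 genes of highest counts per list and the 5 most like each. Gm26917 in cells by Malat1 share was picked after its values were seen.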

Additional observations from a re-analysis of the deposited data

Results flagged for a closer look

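The ratio of lung over mammary library for Neat1 had opposite signs at the early and the late stage, which marks it for a closer look. The log2 ratio was 1.15 for early lung over early lesion (10 against 91 counts, interval -0.02 to 2.03, short of the call) and -1.45 for late lung over primary tumor (24 against 305 counts, -2.14 to -0.88). As a mean over cells the early ratio was 0.025, and without cells over 10000 UMIs the late ratio was -0.23, which was not called. With 1 library in each group the difference between these ratios was not tested.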

How the results depend on the processing

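No paired analysis was possible because each group is 1 library. Of 80 library shares under other settings, 39 stayed within the main counting interval, as did 22 of 32 shares of cells without a count and 57 of 92 class values, and 80 of 96 ratios kept their direction and call. Settings that leave out the cells with high Malat1 or the richest cell were added after the data were seen, as was the removal of deep cells from classes. Means over cells have no interval. With at least 1000 UMIs per cell, Malat1 was at 1.94, 0.702, 0.476 and 0.0805% in the late lung, early lung, primary tumor and early lesion, and the Neat1 log2 ratio was 1.66 for early lung over early lesion and -0.092 for late lung over early lung. Without cells over 10000 UMIs, Malat1 was at 0.550, 0.134, 0.160 and 0.0892% in that order and Neat1 at 0.00511% in the primary tumor. The Malat1 log2 ratio was then 0.59 for early lung over early lesion and 0.84 for primary tumor over early lesion, and that of Neat1 was -0.23 for late lung over primary tumor. Genes called higher numbered 1093 for late lung over primary tumor, 1210 for primary tumor over early lesion and 138 for late lung over early lung (1819, 2413 and 398 with all cells). In the classes, that removal gave Malat1 0.160% and Neat1 0.00511% in tumor luminal-like cells, Malat1 0.0699% in lesion luminal-like cells, Malat1 0.685% and Neat1 0.00184% in late lung endothelial-like cells, Malat1 0.00496% in early lung endothelial-like cells, and Malat1 2.16% and Neat1 0% in late lung pericyte-like cells. Without cells with Malat1 at 1% or more, Malat1 was at 0.0594, 0.0179, 0.227 and 0.0330% in the 4 libraries and Neat1 at 0.0140% in the primary tumor and 0.000996% in the early lesion. The log2 ratios were then -0.87 (Malat1) and 1.76 (Neat1) for early lung over early lesion and -1.93 (Malat1) for late lung over primary tumor. This removal lowers Malat1 by its construction. Without the richest cell, Malat1 was at 1.32, 0.134, 0.427 and 0.0715%, Neat1 at 0.0138% in the primary tumor and 0.00142% in the early lesion, and the Malat1 ratio of early lung over early lesion 0.91. Without the richest cell of each class, Malat1 was at 0.427 and 0.0531% in luminal-like cells of the primary tumor and early lesion, 0.0328 and 0.00833% in alveolar type 1-like cells of the late and early lung, 0.00314% in airway cells of the early lung, 2.0001 and 0.00496% in endothelial-like cells of the late and early lung, 2.16, 0.00683 and 1.47% in pericyte-like cells of the late lung, early lung and early lesion, and 0.264% in macrophage-like cells of the early lesion. Neat1 was then at 0.0138 and 0.00134% in luminal-like cells of the primary tumor and early lesion, 0.00287% in endothelial-like cells of the late lung, and 0% in pericyte-like cells of 3 libraries and in alveolar type 1-like and airway cells of the early lung. As a mean over cells, Malat1 was at 0.313, 0.0871, 0.200 and 0.118% and Neat1 at 0.00670% in the primary tumor. The Malat1 ratios were then -0.44 for early lung over early lesion, 0.65 for late lung over primary tumor and 0.76 for primary tumor over early lesion, and that of Neat1 was -0.68 for late lung over primary tumor. With mt- genes left out of the denominator, Malat1 was at 1.58% in the late lung and 0.473% in the primary tumor, and the Neat1 ratio of early lung over early lesion was 1.19. With the 42 most abundant genes left out of it, Malat1 was at 1.92, 0.516, 0.575 and 0.115% and Neat1 at 0.0207% in the primary tumor and 0.00314% in the early lesion. At an mt- share of at most 20%, Malat1 was at 0.429% in the primary tumor and 0.0811% in the early lesion. Clustered again, Malat1 was then at 0.430% in tumor luminal-like cells and at 1.65, 1.22 and 2.48% in pericyte-like cells of the late lung, early lung and early lesion, with Neat1 at 0% in those of both lungs. At most 10% mt- gave Malat1 0.381% in the primary tumor and 0.0467% in the early lesion, Neat1 0.00100% in the early lesion and a Neat1 ratio of 2.40 for early lung over early lesion. The cell minimum of the whole-series rule gave Malat1 0.427% in the primary tumor and 0.0806% in the early lesion. A pseudocount of 5 gave Neat1 -0.061 for late lung over early lung. Counting all genes with at least 1 count, 3212 were higher for early lung over early lesion, 2869 higher for late lung over primary tumor and 335 lower for late lung over early lung. Scaling by median ratios gave 1725 genes lower for early lung over early lesion and 1043 for primary tumor over early lesion. Thinned to 1000 UMIs, cells without Malat1 made up 73.4% in the late lung and 87.3% in the early lung, and without Neat1 92.4, 94.8 and 98.5% in late lung, primary tumor and early lesion. Unthinned, 80.0 and 82.9% of primary tumor and early lesion cells lacked Malat1, and 93.8, 91.3 and 97.2% of late lung, primary tumor and early lesion cells lacked Neat1. In cells of at least 1000 UMIs, rho with mt- share was 0.36 for Malat1 in the late lung and 0.35, 0.13 and 0.24 for Neat1 in the late lung, early lung and primary tumor. At Leiden resolution 2.0, pericyte-like cells of the early lung had 1.26% Malat1 and 0% Neat1, and 12 fibroblast-like cells of that library had no Malat1 count. In the early lesion 2 cells were then pericyte-like and 15 were mammary basal or myoepithelial-like, the latter with 2.03% Malat1. The cause was not tested. Neat1 rested on 24 counts in the late lung and 10 in the early lung.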

Other observations

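Genes of the dissociation stress response, which turn on while tissue is digested and sorted, also differed between cells by Malat1 share. Their 11 genes summed to 0.4996% of non-Malat1 UMIs in late lung cells with Malat1 at 1% or more, against 0.0980% in the other cells. They summed to 0.498 against 0.127% in the early lung and 0.739 against 0.294% in the early lesion. In the primary tumor the values were 0.0334 against 0.0479%. The high cells thus held more of these messages in 3 libraries and less in the tumor. Between libraries, 10 of the 11 were called lower in primary tumor over early lesion, against 6.74% of all genes. In late lung over primary tumor 8 of 9 measured were called higher, against 20.6% of all genes. Early lung over early lesion went the other way, with 7 of 11 called lower and 1 higher, against 11.8 and 22.1% of all genes. In late lung over early lung 4 of 9 measured were called higher, against 8.74% of all genes. Cell class and depth differed between the cells compared, and their part was not tested.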
